A study of Mus musculus with 4 samples.

Results

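The 54 genes described here copy DNA or feed its copying: they load and fire the replicative helicase, build the fork, make deoxynucleotides, drive entry into S phase or rebuild chromatin behind the fork. Their probes were found by gene name on 4 mouse expression arrays, and the set of names was drawn up with earlier results of these data known. Of 41174 probes, 81 carried the name of a member, among them 15 probes of 7 members listed under an older symbol of the same gene. Of the 54 members, 53 entered the tests together with 16448 genes in all. Orc1, the largest subunit of the origin recognition complex, did not, because its single probe was well above background on 1 of the 4 arrays.

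The RNA came from induced hepatocyte-like cells, called iHep cells, of C57BL/6 mice. These cells acquired hepatocyte features in culture and, per the labels, were derived from cells abbreviated MDFs, a term the sources used here do not spell out. The groups were iHep cells in 3D culture (2 arrays) and iHep cells in 2D culture (2 arrays). Each of 2 independent experiments, iHep-1 and iHep-2, supplied 1 array to each culture, and a plus sign follows the experiment in the titles of both 2D samples but of neither 3D sample. What the sign stands for is not stated in the labels, so it cannot be told apart from culture.

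Before S phase, the origin recognition complex, CDC6 and CDT1 load the MCM helicase onto origins, which licenses them to fire once. CDC45 and the GINS complex then switch the helicase on, and polymerase alpha with primase lays down the primers. Polymerases delta and epsilon copy the strands on the PCNA clamp, and FEN1 and LIG1 join the Okazaki fragments. E2F transcription factors raise many of these genes together at the G1/S boundary, and adult liver cells in the resting state express most of them weakly.

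Levels are given as log2 of the scanner's background-corrected signal relative to the array's own 75th percentile, so that 0 is that percentile and a negative level lies below it. A probe's brightness depends on its sequence, and levels were therefore compared between arrays for 1 probe at a time. The 75th percentile lay at 594 and 399 intensity units on the 3D arrays and at 523 and 616 on the 2D arrays. Probes well above background numbered 24413 and 23061 in 3D and 23745 and 24378 in 2D, and no spot was saturated. All differences are 3D minus 2D unless stated otherwise. They compare a gene with the rest of its array. When arrays were scaled by their spike-in controls in place of the percentile, the median difference of all genes became -1.08, and when they were scaled by their medians it became -0.14. With 4 arrays, it is their number that limits the precision.

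The cells carried hepatocyte RNA in both cultures. Of 8 hepatocyte markers, 7 were well above background on both 3D arrays and 7 on both 2D arrays, and the other one had no matching probe. Their summed linear levels, in multiples of the 75th percentile, were 897 and 1515 in 3D, against 862 and 658 in 2D, for iHep-1 and iHep-2 in that order. The brightest genes weigh most in such a sum. Among the 7 that entered the tests, 4 were higher in 3D in both experiments, against 33.2% of all genes tested. The other 3 had opposite directions in the experiments, against 33.8%. Of 8 fibroblast markers, 2 were well above background on both 3D arrays and 3 on both 2D arrays, while Dcn, Lum and Thy1 were on no array. Of the 3 that entered the tests, 2 were higher in 3D in both experiments and 1 was lower in both. The summed fibroblast level was 7.59 and 7.62 in 3D, against 5.10 and 4.92 in 2D. The 4 cholangiocyte markers were well above background on every array and summed to 13.3 and 28.0 in 3D, against 4.96 and 32.7 in 2D. Of 4 macrophage markers, 2 (Cd68 and Csf1r) were well above background on both 3D arrays and 1 (Cd68) on both 2D arrays, and Ptprc was on none. Their summed level was 0.147 and 0.0797 in 3D, against 0.0698 and 0.149 in 2D. Of 3 endothelial markers, Kdr and Pecam1 were well above background on no array, while Cdh5 was on both 2D arrays and on neither 3D array. Cdh5 read -6.01 and -5.25 in 3D, against -3.24 and -3.80 in 2D, and so was lower in 3D in both experiments, the direction most replication genes took. The summed endothelial level was 0.0240 and 0.0386 in 3D, against 0.116 and 0.0847 in 2D. The parts of these shifts in the results below were not tested.

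In 3D culture, most of the replication genes had less signal than in 2D culture. The level was lower in 3D in both experiments for 44 of the 53 tested members, against 33.0% of all genes tested, and it was higher in both for 1 member, E2f2, against 33.2%. A difference of at least 2-fold in both experiments was found for 6 members, Pole2, Rrm2, Ccne1, E2f7, E2f8 and Uhrf1, against 2.13% of all genes. E2f7 was well above background on neither 3D array, so it entered the tests through 2D alone, and E2f8 was on 1. With only probes well above background on all 4 arrays, 4 members were lower by as much, against 204 of 14581 genes. Both 3D arrays lay below both 2D arrays for 37 members, a pattern seen in 21.5% of all genes, and no member showed the opposite, which 19.9% of all genes did. The median difference of the members was -0.92 (-0.36 in iHep-1 and -1.41 in iHep-2), while that of all genes tested was 0.02. The probes of the 6 genes lay, on build mm9, at chr12:70307465-70308864 (Pole2), chr12:25398619-25398675 (Rrm2), chr7:38882937-38882960 (Ccne1), chr10:110224153-110224212 (E2f7), chr7:56122022-56122081 (E2f8) and chr17:56462657-56462716 (Uhrf1), and that of E2f2 at chr4:135750562-135750621. In bulk RNA, fewer cells in S phase and less of these transcripts per cell cannot be told apart.

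No single member passed the test across all genes. With limma and Benjamini-Hochberg adjustment over 16448 genes, 0 genes were called between 3D and 2D (0.00% of those tested, smallest adjusted p = 0.496), and the smallest adjusted p of a member was 0.684. At an unadjusted limma p under 0.05 there were 1157 genes in all. Those lower in 3D included 9 members (Orc6, Pole2, Rfc5, Tyms, Rrm2, Ccne1, E2f7, E2f8 and Uhrf1), against 2.98% of all genes, and those higher in 3D included 0 members, against 4.06%. E2f7 entered the tests through its 2D arrays alone. With only probes well above background on all 4 arrays, the lower genes at that threshold were 7 members, against 456 of 14581 genes. A limma fit that pairs the arrays of an experiment (the experiment as a block) also called 0 genes, with a smallest adjusted p = 0.125. In that fit 12 members had an unadjusted p under 0.05, against 13.2% of all genes. E2f2 was higher in 3D and the other 11 members were lower, as were 806 of the 2179 genes at that threshold. The members' median difference depended on single arrays. It was -0.48 without the 2D array of iHep-2 and -0.72 without the 3D array of iHep-2. Leaving out iHep-1 arrays gave -1.32 without the 2D array and -1.01 without the 3D array. The median of all genes tested lay between -0.02 and 0.04 in these fits.

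**Figure D1:**
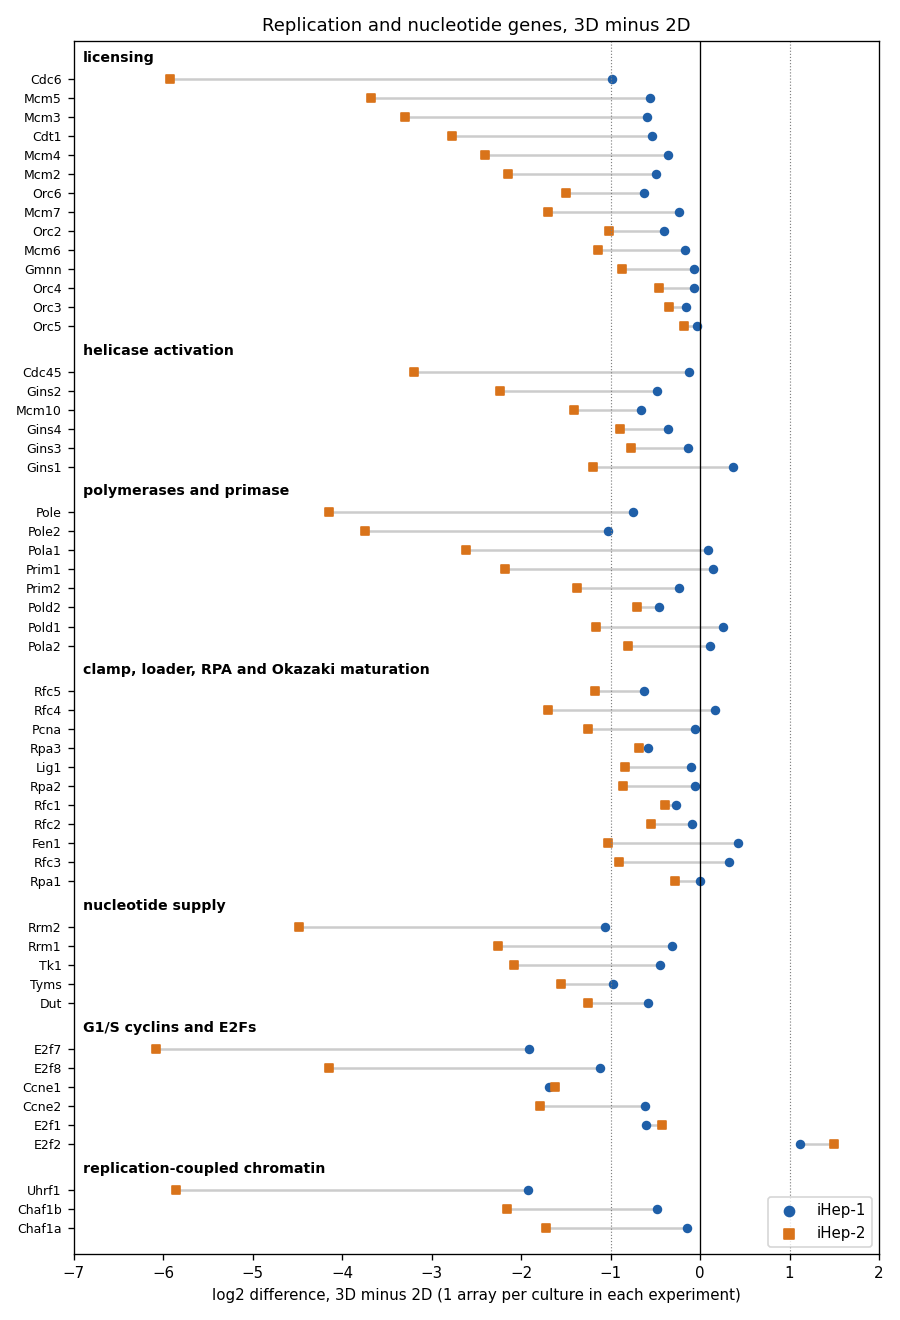
Difference in log2 level, 3D minus 2D, of the 53 tested members (rows, by role), with a circle for iHep-1 and a square for iHep-2 (1 array per culture in each). The solid line marks no difference and the dotted lines a 2-fold difference; 52 squares and 44 circles lie left of the solid line, and E2f2 is the only member with both symbols right of it.

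The experiments differed in size. In iHep-2, 52 of the 53 members were lower in 3D and 36 of them at least 2-fold, against 47.6% and 8.32% of all genes. In iHep-1, 44 were lower and 6 at least 2-fold lower, against 52.2% and 4.07% of all genes. The difference was more negative in iHep-2 than in iHep-1 for 50 members, where 47.5% of all genes were. With spike-in scaling the members' medians were -1.94 in iHep-2 and -2.03 in iHep-1, and those of all genes -0.49 and -1.69, so that the gap between experiments then lay in the members' distance from the other genes. Opposite directions in the experiments were found for 8 members, against 33.8% of all genes. A single array per culture in each experiment leaves no residual degrees of freedom for a test of this gap. Across the 53 members, the differences of the experiments, which share no array, correlated with Pearson's r = 0.71 and Spearman's rho = 0.55, against 0.54 and 0.46 across all 16448 genes. Genes of the same arrays are not independent replicates, and these coefficients are a description.

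**Figure D2:**
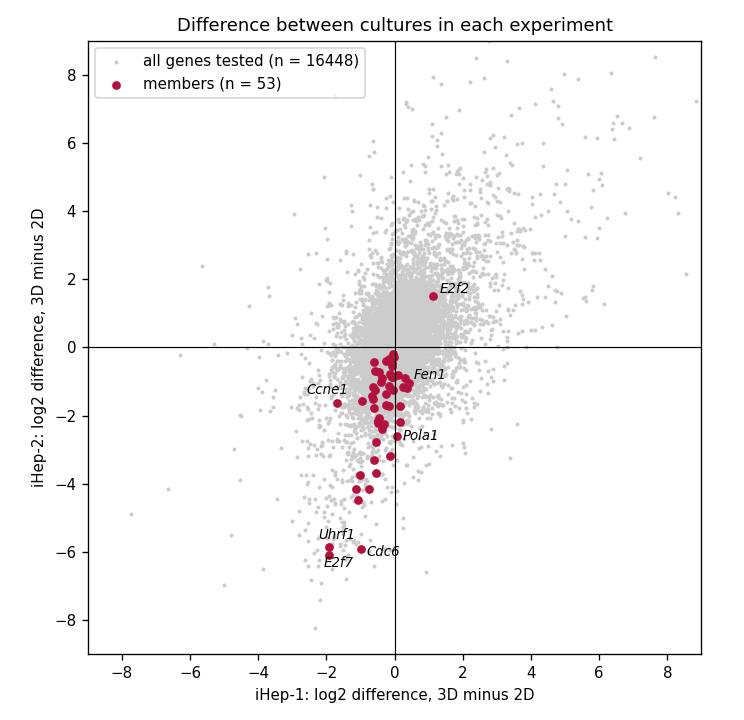
Difference in log2 level, 3D minus 2D, in iHep-2 (vertical axis) against iHep-1 (horizontal axis) for all genes tested (grey) and the members (red); 10 genes lie outside the axes. The members lie mostly at the lower left and reach further down than to the left, as Rrm2 does at -4.48 in iHep-2 and -1.06 in iHep-1.

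The stretches of promoter just upstream of the start of 7 members are shown because the group includes both E2F factors and genes known as their targets. They are RefSeq sequences of build GRCm38.p6, 170 bases each, ending at the base before the annotated start and read on the strand of the gene. Capitals mark the letters TTCCCGC or TTCGCGC or TTGCCGC or TTGGCGC on either strand, the forms searched for as E2F-type motifs, and a run of capitals over 7 bases holds overlapping matches of both strands. The intervals are chr8:75109339-75109508 for Mcm5 (plus strand), chr1:128359706-128359875 for Mcm6 (minus), chr11:98907981-98908150 for Cdc6 (plus), chr10:110745269-110745438 for E2f7 (plus), chr7:48881597-48881766 for E2f8 (minus), chr17:56303167-56303336 for Uhrf1 (plus) and chr4:136172104-136172273 for E2f2 (plus).
Mcm5: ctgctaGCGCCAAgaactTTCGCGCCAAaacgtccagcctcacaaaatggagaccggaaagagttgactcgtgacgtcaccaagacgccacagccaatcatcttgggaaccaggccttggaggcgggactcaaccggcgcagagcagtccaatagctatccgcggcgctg
Mcm6: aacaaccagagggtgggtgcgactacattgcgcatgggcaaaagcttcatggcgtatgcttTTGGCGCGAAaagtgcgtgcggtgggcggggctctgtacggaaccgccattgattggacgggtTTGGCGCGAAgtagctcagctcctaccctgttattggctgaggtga
Cdc6: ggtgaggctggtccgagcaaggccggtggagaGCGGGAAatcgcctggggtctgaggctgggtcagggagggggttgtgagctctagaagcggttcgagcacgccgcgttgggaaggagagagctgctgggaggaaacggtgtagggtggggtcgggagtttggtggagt
E2f7: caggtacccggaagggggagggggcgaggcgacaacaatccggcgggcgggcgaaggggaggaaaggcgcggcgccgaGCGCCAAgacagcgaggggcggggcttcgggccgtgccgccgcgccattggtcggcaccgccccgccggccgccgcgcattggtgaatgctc
E2f8: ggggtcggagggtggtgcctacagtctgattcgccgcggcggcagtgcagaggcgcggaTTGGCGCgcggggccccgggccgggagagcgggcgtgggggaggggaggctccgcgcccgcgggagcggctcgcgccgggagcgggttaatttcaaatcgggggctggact
Uhrf1: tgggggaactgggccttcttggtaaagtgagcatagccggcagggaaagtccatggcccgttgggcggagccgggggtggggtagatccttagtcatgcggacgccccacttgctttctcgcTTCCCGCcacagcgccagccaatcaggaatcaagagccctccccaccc
E2f2: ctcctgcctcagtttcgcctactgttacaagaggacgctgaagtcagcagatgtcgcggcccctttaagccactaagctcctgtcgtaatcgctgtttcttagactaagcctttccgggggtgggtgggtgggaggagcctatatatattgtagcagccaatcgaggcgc
Mcm6 held 4 matches in this stretch, Mcm5 held 3, and Cdc6, E2f7, E2f8 and Uhrf1 held 1 each. E2f2 held none there and 1 just after its start. The same stretch of Pole2, Rrm2 and Ccne1, which were lower in 3D in both experiments, and that of the other Uhrf1 promoter held none either. The count in this stretch therefore did not separate E2f2 from those genes. The 7 stretches shown do not stand for all members: those of Mcm2, Mcm3, Pcna, Cdt1, Tyms and Tk1 also held none. The promoter table gave 55 promoters of 300 bases for 45 members. The E2F-type letters occurred in 32 of them (58.2%), against 15.6% of the 13883 promoters of genes tested and 9.57% of all 32851 promoters in the table. At least 2 matches, overlapping ones included, occurred in 21.8% of the members' promoters and in 2.11% of those of genes tested. The letters CCAAT on either strand occurred in 58.2% and 37.7% of the same groups. The members' promoters had a median GC content of 61.3%, against 60.0% for genes tested, and among promoters of genes tested with a GC content in the central range of the members 15.7% held E2F-type letters. A match is a run of letters and says nothing about binding in these cells.

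Licensing genes were lower in 3D in both experiments for all 14 tested, against 33.0% of all genes tested, with a median difference of -1.02. The 6 subunits of the MCM2-7 helicase had a median of -1.35, and each was lower by at least 2-fold in iHep-2 and by less than 2-fold in iHep-1. Mcm5 had levels of -0.26 and -1.80 in 3D, against 0.30 and 1.88 in 2D, in iHep-1 and iHep-2 (mean difference -2.11, SE 0.85, n = 2 per group). Both 3D arrays lay below both 2D arrays. Every SE given is limma's moderated one, which draws on the variance of all genes and not on the 4 values alone. For Mcm3, 0.01 and -1.28 in 3D stood against 0.60 and 2.01 in 2D, and for Mcm2, -0.39 and -0.61 in 3D against 0.09 and 1.53 in 2D. Mcm6 was the MCM subunit whose groups overlapped: 2.79 and 3.74 in 3D, against 2.96 and 4.89 in 2D. Mcm4 and Mcm7 differed by -1.38 and -0.97 on average.

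Among the loaders, the widest difference was that of Cdc6, the ATPase that brings CDT1 and the helicase to the origin. Its level was -5.31 and -7.86 in 3D, against -4.33 and -1.93 in 2D (difference -3.45, SE 1.32). It was well above background on 1 of the 2 3D arrays, so that the 10.9-fold lower mean rests partly on a signal near background. Cdt1, the other loader, had 1.58 and 0.94 in 3D, against 2.11 and 3.72 in 2D, and its inhibitor geminin (Gmnn) had 2.93 and 2.91 in 3D, against 2.99 and 3.77 in 2D. The subunits of the origin recognition complex differed less, with a median of -0.27 over 5. Orc6 was the widest of them, with 2.31 and 2.01 in 3D, against 2.94 and 3.51 in 2D (difference -1.07, SE 0.32), and Orc5 the narrowest, at -0.11 with overlapping groups. Of the 4 probes of Orc4, 1 differed in the other direction, by 0.22. The untested Orc1 probe read -7.34 and -7.75 in 3D, against -6.53 and -4.29 in 2D.

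Helicase activators were lower in 3D in both experiments for 5 of 6, against 33.0% of all genes tested, with a median of -0.83. Cdc45, which rides with the active helicase, had -4.21 and -5.44 in 3D, against -4.08 and -2.24 in 2D, and it was well above background on 1 of the 2 3D arrays. Its difference was -0.13 in iHep-1 and -3.19 in iHep-2. Mcm10, which helps the helicase start, had -0.47 and 0.42 in 3D, against 0.19 and 1.83 in 2D, and the groups overlapped. The 4 GINS subunits had a median of -0.54. Gins2 had -1.84 and -2.24 in 3D, against -1.37 and -0.01 in 2D, whereas Gins1 had 0.62 and -0.29 in 3D, against 0.25 and 0.91 in 2D, and so was the member of this role with opposite directions in the experiments.

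Polymerase and primase genes were mixed. Polymerase epsilon, the leading-strand enzyme, had among the widest differences: its catalytic subunit Pole read -1.38 and -2.91 in 3D, against -0.62 and 1.23 in 2D (difference -2.45, SE 0.92). Pole2, its second subunit, read -2.28 and -3.98 in 3D, against -1.25 and -0.23 in 2D (difference -2.38, SE 0.77), 5.22-fold lower on average. For both, the 3D arrays lay below the 2D arrays in each experiment and across them. Polymerase alpha and primase, which lay down the primers, and polymerase delta, the lagging-strand enzyme, overlapped between cultures for 4 of their 6 subunits. Overlap was common in all genes tested: 21.5% had both 3D arrays below both 2D arrays, 19.9% had both above, and the rest overlapped. Pola1 had -1.23 and -2.77 in 3D, against -1.32 and -0.16 in 2D, and Prim1 had 0.77 and -0.40 in 3D, against 0.63 and 1.78 in 2D. Their iHep-1 differences were 0.08 and 0.15 and their iHep-2 differences -2.61 and -2.18. Pold1 and Pola2 also pointed in opposite directions in the experiments, while Prim2 and Pold2 were lower in 3D on both arrays (mean differences -0.81 and -0.59). In all, 4 of the 8 genes of this role were lower in both experiments, against 33.0% of all genes tested, with a median of -0.91.

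The clamp, its loader, the single-strand binder RPA and the Okazaki-fragment enzymes formed the role with the median nearest to 0, -0.46. Of these 11 genes, 8 were lower in both experiments, against 33.0% of all genes tested. Pcna, the clamp, had 3.34 and 3.22 in 3D, against 3.39 and 4.48 in 2D (difference -0.65, SE 0.46). The 2D array of iHep-2 stood apart, while the other 3 arrays lay between 3.22 and 3.39. Rfc5, a clamp loader subunit, had 1.45 and 1.23 in 3D, against 2.08 and 2.40 in 2D (difference -0.90, SE 0.25), with little spread within each group. Rfc3 and Rfc4, of the same complex, differed by 0.32 and 0.16 in iHep-1 and by -0.91 and -1.70 in iHep-2. The RPA subunits Rpa1, Rpa2 and Rpa3 differed by -0.14, -0.46 and -0.63 on average. Of the enzymes that finish Okazaki fragments, the ligase Lig1 differed by -0.10 in iHep-1 and -0.84 in iHep-2. The flap nuclease Fen1 had -0.20 and -0.96 in 3D, against -0.63 and 0.07 in 2D, and was higher in 3D in iHep-1 by 0.42.

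Nucleotide supply genes were lower in 3D in both experiments for all 5, against 33.0% of all genes tested, with a median of -1.27. Each was lower by at least 2-fold in iHep-2, as were 8.32% of all genes. Rrm2, the S-phase subunit of ribonucleotide reductase, had -2.98 and -4.44 in 3D, against -1.92 and 0.04 in 2D (difference -2.77, SE 0.94), 6.82-fold lower on average. Its partner Rrm1 had 1.24 and 0.11 in 3D, against 1.56 and 2.37 in 2D. Tyms, the thymidylate synthase, had the smallest unadjusted limma p of all members (0.013, adjusted p = 0.684), with 1.53 and 1.06 in 3D, against 2.50 and 2.62 in 2D (difference -1.26, SE 0.27). Its 4 arrays varied little within a culture, and its difference, unlike that of Rrm2, was of like size in the experiments (-0.97 and -1.56). The salvage kinase Tk1 had -1.27 and -0.77 in 3D, against -0.82 and 1.31 in 2D, with overlapping groups. Dut, which removes dUTP, differed by -0.92 on average.

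By the values of the probes used, the G1/S regulators held both the highest difference, that of E2f2, and the lowest, that of E2f7. The lowest place is uncertain, since the E2f7 difference of -4.00 rests on 3D signal not well above background. Uhrf1, of another role, differed by -3.89 and was well above background on all 4 arrays. E2f7 and E2f8 encode repressors of the E2F family. E2f7 read -5.78 and -7.57 in 3D, against -3.86 and -1.49 in 2D. It was not well above background on either 3D array, and the 2D mean was at least 7.96-fold brighter than the floor, the higher of the probe's own 3D value and the lowest signal well above background on each array (limma, adjusted p = 0.684). A second E2f7 probe differed by -0.97 in iHep-1 and 0.25 in iHep-2. E2f8 had -4.78 and -5.97 in 3D, against -3.66 and -1.83 in 2D (difference -2.63, SE 0.84), and 1 of the 2 3D arrays was well above background. E2f1, an activator, differed far less, with -1.14 and -1.36 in 3D, against -0.54 and -0.94 in 2D.

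E2f2, another activator of the family, was the single member higher in 3D in both experiments and by at least 2-fold in each, against 4.26% of all genes tested. It had -0.38 and 1.53 in 3D, against -1.50 and 0.03 in 2D (difference 1.31, SE 0.94), and the groups overlapped, each iHep-2 array lying above the iHep-1 array of the same culture. With the experiment as a block, which sets each 3D array against its own 2D array, its unadjusted limma p was 0.010 and its adjusted p 0.288; with spike-in scaling the difference was 0.21. The cyclins that activate CDK2 were lower in 3D. Ccne1 read -0.25 and 0.68 in 3D, against 1.44 and 2.30 in 2D, and differed almost equally in iHep-1 (-1.69) and iHep-2 (-1.62). Its other probe differed by -0.74 and -1.49. Ccne1 had the smallest unadjusted p of the members with the experiment as a block (0.00361, limma, adjusted p = 0.237). Ccne2 differed by -1.20 on average.

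**Figure D3:**
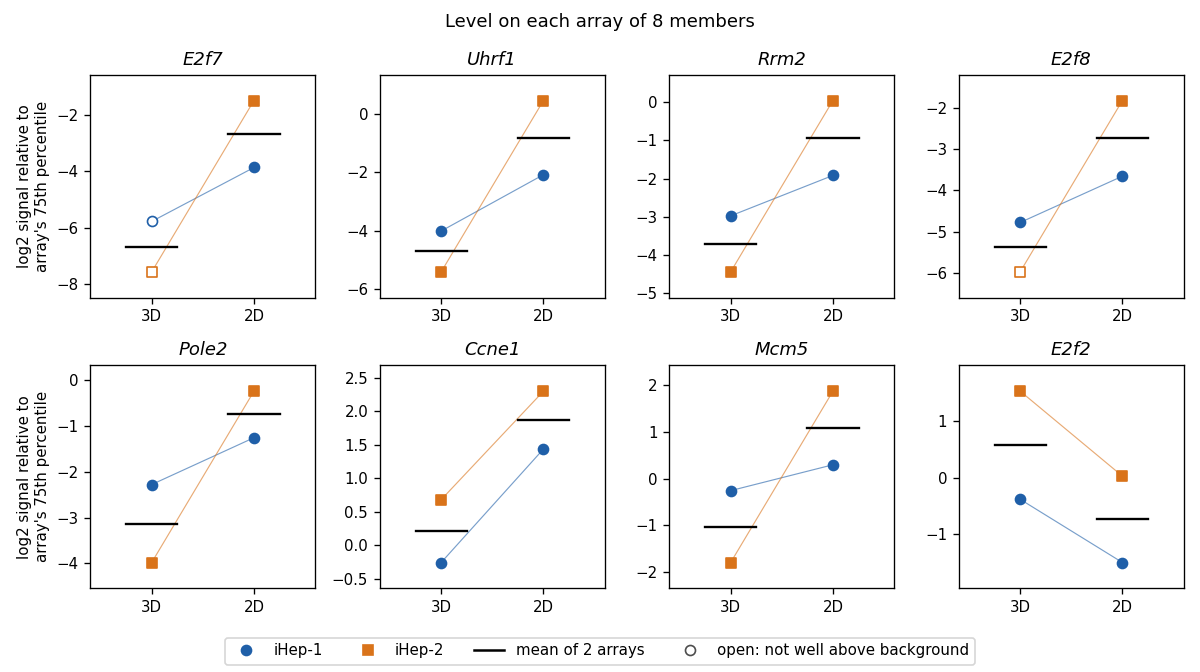
Level on each array of 8 members, in log2 signal relative to the array's 75th percentile, for 3D and 2D culture; circles are iHep-1, squares iHep-2, lines join the arrays of an experiment, bars are means of 2 arrays and open symbols were not well above background. The lines of 7 genes climb towards 2D, more steeply in iHep-2 for all of these but Ccne1, and those of E2f2 descend.

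Chromatin genes coupled to replication were lower in 3D in both experiments for all 3, against 33.0% of all genes tested, with a median of -1.32. Uhrf1, which reads hemimethylated DNA behind the fork and recruits the maintenance methyltransferase, had -4.00 and -5.40 in 3D, against -2.08 and 0.46 in 2D (means -4.70 ± 0.99 in 3D and -0.81 ± 1.79 in 2D, SD, n = 2 each). It was well above background on all 4 arrays, and the difference of -3.89 was a 14.9-fold lower mean in 3D. With the normexp background correction, which adds an offset, that difference was -2.19. A second Uhrf1 probe differed by -4.47 and was well above background on 1 of the 2 3D arrays. Chaf1b, a subunit of the CAF-1 histone chaperone, had -0.18 and -0.22 in 3D, against 0.30 and 1.93 in 2D. Its partner Chaf1a had -1.80 and -1.65 in 3D, against -1.65 and 0.07 in 2D, with groups that overlapped at one pair of arrays.

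Other genes of the same processes were read from 5 lists, and none of them passed the adjusted threshold either. Of 18 further licensing and fork regulators, 12 were lower in 3D in both experiments (median -0.96), against 33.0% of all genes tested. The licensing-control ubiquitin ligase adaptor Dtl had -4.93 and -6.35 in 3D, against -2.58 and -0.32 in 2D, and was well above background on 1 of the 2 3D arrays. Ticrr, an origin-firing factor, and Clspn, a fork mediator, were not well above background on either 3D array and were at least 2.68-fold and 2.83-fold brighter in 2D. Donson, a fork factor, differed by -1.12.

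Accessory fork factors were lower in both experiments for 13 of 20 and higher in both for 4 (median -0.25), against 33.0% and 33.2% of all genes tested. Top2a, the topoisomerase of dividing cells, had -4.40 and -5.19 in 3D, against -2.45 and -0.10 in 2D. The nuclease Exo1 and the clamp-loading factor Dscc1 differed by -3.32 and -3.47, and Dscc1 was well above background on 1 of the 2 3D arrays. Pold4, the small subunit of polymerase delta, went the other way, with 1.63 and 1.80 in 3D, against 0.95 and 0.91 in 2D, a direction that turned with spike-in scaling (-0.31). Purine, pyrimidine and folate enzymes stayed nearest to the other genes, with a median of -0.17. Of these 30, 13 were lower in both and 7 higher in both, against the same 33.0% and 33.2%. Mthfd2, a mitochondrial folate enzyme, had the widest difference of those named, with -0.99 and 0.73 in 3D, against 1.69 and 2.38 in 2D, and Dctd, Pfas and Dhodh differed by -1.21, -0.63 and -0.52.

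Of 22 further G1/S and E2F regulators, 18 were lower in both experiments (median -0.64), against 33.0% of all genes tested. Ccna2, the S-phase cyclin, had -1.97 and -4.19 in 3D, against 0.23 and 2.04 in 2D. Myc differed by -1.15, the APC/C inhibitor Fbxo5 by -1.93 and Ccnd3 by -0.97. Of 19 checkpoint and chromatin assembly genes, 17 were tested and 11 were lower in both (median -0.37), against the same 33.0%. Asf1b, a histone chaperone, differed by -2.42 and the remodeller Hells by -1.91. The maintenance methyltransferase Dnmt1 had -1.19 and -1.62 in 3D, against -0.85 and 0.25 in 2D. Outside these lists, 3 further genes were preset. Cdkn1a, the CDK inhibitor p21, had 2.68 and 2.72 in 3D, against 1.30 and 1.33 in 2D (difference 1.38, adjusted p = 0.684 with limma), with the replicates of each culture close together. The proliferation marker Mki67 had -1.05 and -2.66 in 3D, against 0.97 and 2.61 in 2D. Albumin (Alb) had 8.94 and 9.57 in 3D, against 9.11 and 8.82 in 2D, so that its direction differed between the experiments.

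The second comparison, iHep-2 minus iHep-1, used the same 4 arrays and asked how the members varied between the independent experiments. Limma called 54 genes (0.328% of those tested) and 0 members. At an unadjusted p under 0.05 there was 1 member, Mcm6 (adjusted p = 0.343 with limma), against 12.7% of all genes. With the culture as a block there were 4 members at that threshold, against 2922 of the 16448 genes tested. Mcm6 had 3.74 and 4.89 in the 3D and 2D arrays of iHep-2, against 2.79 and 2.96 in those of iHep-1 (difference 1.44). The members' median difference between the experiments was 0.16, but it had opposite signs in the cultures. In 3D it was -0.40, and 11 of 53 members were higher in iHep-2, against 50.2% of all genes. In 2D it was 1.01, and 47 of 53 were higher in iHep-2, against 46.2%. Both cultures had the higher level in iHep-2 for 11 members (30.0% of all genes) and the lower level in iHep-2 for 6 (33.6%). Ordered by culture and experiment, the median level of the tested members was -0.29 in 3D of iHep-2 and -0.18 in 3D of iHep-1, against 1.58 in 2D of iHep-2 and 0.30 in 2D of iHep-1. The members' median difference between experiments turned on single arrays. Without the 2D array of iHep-2 it was -0.55, and without the 3D array of iHep-2 it was 1.07. Without the 2D array of iHep-1 it was 0.37, and without the 3D array of iHep-1 it was 0.009.

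**Figure D4:**
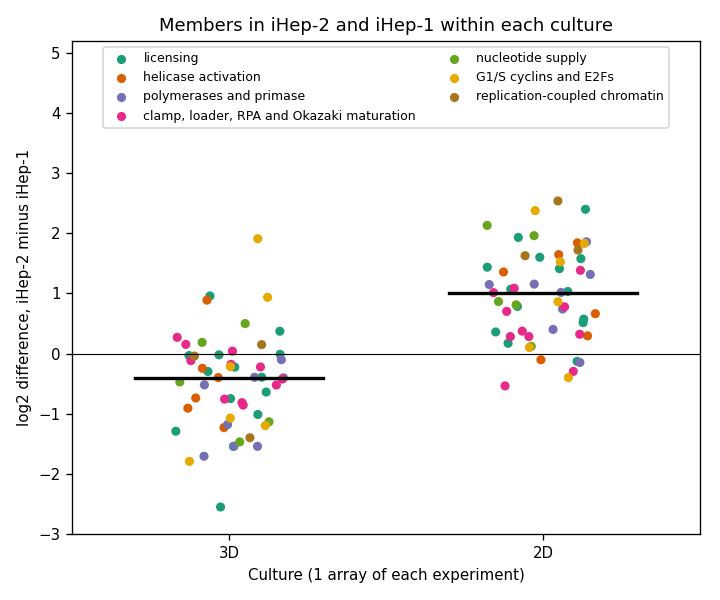
Difference in log2 level, iHep-2 minus iHep-1, of the 53 tested members within 3D and within 2D culture (1 array of each experiment per culture), coloured by role; points are spread sideways for legibility and bars are medians. The 3D points centre on -0.40 and the 2D points on 1.01, with 42 of 53 at or below 0 in 3D and 6 of 53 in 2D.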

How the data were processed

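Expression was measured on 4 one-colour Agilent arrays (design 014868, build mm9 per the file headers) of iHep cells in 3D or 2D culture; per the labels' protocols, an RNeasy Micro kit gave the RNA and Quick Amp the Cy3 label. The deposited files hold linear spot intensity values from Feature Extraction, from 1 slide and 1 scan. The file headers name its version 10.7.1.1, whereas 9.5.1.1 stands in the submitters' processing notes. The authors' series table, also deposited as linear intensity, served as an alternative.

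Log2 of the processed signal minus each array's 75th percentile was taken without control spots and without 72 to 85 outlier spots per array. A probe had to be well above background on 2 or more of the 4 arrays, and the probe with the highest mean stood for a gene. Older symbols were matched through a RefSeq table of GRCm38.p6, whose coordinates were used only for promoters. Limma 3.58.1 in R 4.3.3 compared groups (two-sided, threshold 0.05, 2 residual degrees of freedom, prior 1.58), and the step was tested on simulated data. The simulated arrays had independent noise, so that this run did not cover the pairing of the real arrays. The arrays are paired, since the replicate number is the experiment named in the design text, and deviations from the group means correlated between arrays of 1 experiment (r = 0.66). The fit with that block was an alternative, beside other background corrections, scalings, filters, probe choices and each array left out. Counts within an experiment have no test. All members may be named, with up to 4 genes of smallest p per further list and 5 preset genes. A gene that this rule takes is not reported here. Members, lists and rules were chosen with earlier results of these data known.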

Additional observations from a re-analysis of the deposited data

Results flagged for a closer look

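Opposite directions between 3D and 2D in the 2 experiments were found for 8 of the 53 members tested, against 33.8% of all genes. With 1 array per culture in an experiment, the difference between experiments was not tested. All 8 were lower in 3D in iHep-2 and higher in 3D in iHep-1. Among the polymerase and primase genes, the iHep-2 and iHep-1 differences were -2.61 and 0.08 for Pola1, -2.18 and 0.15 for Prim1, -1.16 and 0.26 for Pold1, and -0.81 and 0.12 for Pola2. The clamp loader gave -1.70 and 0.16 for Rfc4, and -0.91 and 0.32 for Rfc3. Gins1, of the helicase-activating GINS complex, gave -1.20 in iHep-2, against 0.37 in iHep-1. For Fen1, the flap nuclease, the values were -1.03 in iHep-2, against 0.42 in iHep-1, the highest iHep-1 value of the 8.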

How the results depend on the processing

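Of 980 pairs of a named gene and an alternative setting, 950 kept the direction and the side of the threshold of the values reported. The direction turned in 13 pairs, and 17 pairs, all with spike-in scaling, passed the threshold. Under the other settings no gene was called, so that only the direction could change. The size of a difference was not counted. Spike-in scaling departed furthest: it called 292 genes between 3D and 2D (76 higher, 216 lower, 7 of them members), where every other setting called 0, including the replicate block (pairing by experiment) and each array left out. Its prior degrees of freedom were infinite, so that all genes shared 1 variance, and it rested on 6 spike-in probes. Members at least 2-fold lower in both experiments numbered 46 with spike-in scaling (3378 of all genes) and 2 with the normexp correction (130 of all genes), against 6 as reported (350 of all genes), and 4 to 8 elsewhere. Their median difference was -2.02 with spike-in scaling, where that of all genes was -1.08, and between -1.32 and -0.48 with an array left out. Genes called between iHep-2 and iHep-1 numbered 103 with normexp, 127 with quantile normalization, 163 with median scaling, 402 with spike-in scaling, 125 in the authors' table, 3 with a filter on all 4 arrays and 303 with the culture as the replicate block, against 54 as reported, and 0 to 0 with an array left out; the cause was not tested. With each array left out in turn, small differences turned: Orc5 ranged from -0.37 to 0.15, Mcm6 from -1.62 to 0.31, Gins1 from -0.87 to 0.040, Pold1 from -1.11 to 0.21, Rfc3 from -0.99 to 0.40, Rpa1 from -0.55 to 0.26, Fen1 from -0.68 to 0.074 and Alb from -0.020 to 0.61. Spike-in scaling turned Alb to -0.81 and Pold4 to -0.31. The block changed no call of a member. For Cdc6, Cdc45, E2f7, E2f8, Dtl, Dscc1, Ticrr, Clspn and Cdh5 in 3D, signal over background limits the size of the difference.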
